A study of Sus scrofa with 42 samples.

Results

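Genes that encode RNA-binding proteins of the oocyte were followed through the first cleavages of the pig, in embryos from in vitro fertilization (IVF) and in embryos from parthenogenetic activation (PA), in which an electric pulse starts development without sperm. The list held IGF2BP1, IGF2BP2, IGF2BP3, ZAR1, ZAR1L, DAZL, CPEB1, LSM14B, YBX2 and PATL2. Of these 10, 7 were found by their name in the deposited table of 15351 genes (IGF2BP2, IGF2BP3, ZAR1, ZAR1L, CPEB1, LSM14B and YBX2), and all 7 passed the filter on low values (1 FPKM or more in 3 or more cells), as did 8116 genes in all. IGF2BP1 (ENSSSCG00000023128) and DAZL (ENSSSCG00000030671) carry no name in the table and were found by gene ID and by position, respectively. They also passed the filter and are described here, but are not counted among the 7. PATL2 was not analysed here. The filter keeps a gene through its highest cells, and IGF2BP1 and LSM14B passed with 3 cells each, ZAR1 with 4, IGF2BP2 with 6, YBX2 with 9, DAZL with 17, CPEB1 with 22, ZAR1L with 24 and IGF2BP3 with 41 of 42 cells.

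The growing oocyte makes more mRNA than it uses and stores it in the cytoplasm, bound by proteins, until meiosis and the first cleavages call for it. Storage and use of these mRNAs depend on proteins that bind their 3′ ends and regulate the length of their poly(A) tails, and the stored pool is broken down as the genome of the embryo becomes active. IGF2BP proteins bind mRNA and protect it from decay. CPEB1 binds U-rich elements near the 3′ end and controls cytoplasmic polyadenylation and translation. ZAR1, ZAR1L, LSM14B and YBX2 belong to the particles that hold stored mRNA, and DAZL is a germ cell protein that promotes translation of its target mRNAs.

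Whole 1-cell embryos and single blastomeres were sequenced, 42 cells from 20 embryos. Method and stage defined 8 groups. Sampling times were 19, 27, 48 and 72 h for the 1-, 2-, 4- and 8-cell stages, counted from the end of sperm incubation in IVF and from the pulse in PA. In each method, 3 embryos were sampled at the 1-, 2- and 4-cell stages (3, 6 and 9 cells) and 1 embryo at the 8-cell stage (3 cells). Oocytes of both methods were matured in vitro, and PA oocytes were also incubated with 6-dimethylaminopurine and cytochalasin B, so the methods differ by these agents as well as by the sperm. Values are FPKM, that is, fragments scaled to gene length and to the fragments counted in the cell. An embryo's value is the mean of its blastomeres and the embryo is the replicate. The labels do not say whether embryos of a group came from separate cultures, so p-values measure the spread between these embryos. Since FPKM is relative to all RNA counted in a cell, a loss of one mRNA and a gain of others cannot be told apart.

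Reads on genes recovered from the FPKM were between 4316908 and 15035941 per cell (median 10182619). PA 4-cell blastomeres 1-4 and 2-1 nearly repeated the values of PA 2-cell blastomeres 1-2 and 2-1. Pearson's r of log2 values was 0.9985 and 0.9988, against at most 0.908 in the other pairs of 861. Many results at the PA 4-cell stage are given with and without these 2 cells, whereas SDs and correlations include them. The 24 mitochondrial genes took 6.07 to 19.2% of the FPKM of IVF 1-cell embryos and 45.2% of the 8-cell embryo, and 13.1 to 14.1% and 47.1% in PA. Of 8 oocyte markers, 7 were in the table, and their summed FPKM was 263 to 893 per embryo up to the 4-cell stage and 74.1 (IVF) and 46.7 (PA) at the 8-cell stage. Of 10 cumulus cell markers, 5 were in the table. None was at 0 in every embryo. TNFAIP6 and INHBA stayed at or below 0.0535 FPKM, whereas the highest embryo had 12.2 of STAR, 8.31 of GREM1 and 1.58 of CYP19A1. The list summed to 0.0807 to 17.1 per embryo up to the 4-cell stage and to 0.0396 and 0.0186 at the 8-cell stage. Of 7 sperm markers, 2 were in the table (ODF2 and AKAP4). Up to the 4-cell stage they summed to at most 2.65 per embryo in IVF. In PA, which had no sperm, they reached 5.18 in a 2-cell embryo. The IVF 8-cell embryo had 10.9 and the PA 8-cell embryo 0.00484. The part of other cells in the results was not tested. With nuclear genes rescaled to the same sum in each cell, the falls of IGF2BP3 and ZAR1L from the 1- to the 8-cell stage given below were called in both methods.

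The 3′ ends of the members are shown first because CPEB1 acts on stored mRNA through such sequence. In the last 100 bases of the longest RefSeq mRNA (Sscrofa11.1), read on the strand of the mRNA, TTTTAT or TTTTAAT (the cytoplasmic polyadenylation element) was found in 2 of 9 members and in 15.8% of 19237 genes. The polyadenylation hexamer AATAAA or ATTAAA was found in 5 of 9 members, against 65.7% of genes, and both in 1 member, against 12.2%. The ends of IGF2BP1, IGF2BP2 and CPEB1 held neither. A match is a description of these letters, not a shown site. Windows of 30 bases follow with the motifs in capitals, at chr9:92104800-92104829 (minus strand), chr12:52635427-52635456 (minus), chr11:8795481-8795510 (minus), chr17:61564401-61564430 (plus) and chr13:3762903-3762932 (minus). The ZAR1L window lies within the gene as deposited, which is longer, and the DAZL window outside it (chr13:3764784-3776150).
IGF2BP3: tgTTTTATttttgcctttttgAATAAAtgt
YBX2: cctctgaagccaTTTTATgaaccgtcatgt
ZAR1L: cgaatagaatgaAATAAAtgcatgtgaaat
LSM14B: cttgtaattacaAATAAAcatgcaaacctt
DAZL: AATAAAtgAATAAATAAAgaaacttttttt

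Upstream sequence is shown for IGF2BP3, the IGF2BP gene that was high from the start, and for ZAR1L, both with a RefSeq start within 500 bases of the deposited one. These are the 250 bases upstream at chr9:92272254-92272503 (minus) and chr11:8805877-8806126 (minus). Capitals mark CANNTG, the E-box pattern, which reads the same on both strands and occurs in 62.2% of 19531 such promoters. It occurs 0 times in IGF2BP3 and 1 time, as CACGTG, in ZAR1L. GC content is 57.2% and 65.2%, against a median of 57.6%, with 10 and 23 CpG, against a median of 12.
IGF2BP3: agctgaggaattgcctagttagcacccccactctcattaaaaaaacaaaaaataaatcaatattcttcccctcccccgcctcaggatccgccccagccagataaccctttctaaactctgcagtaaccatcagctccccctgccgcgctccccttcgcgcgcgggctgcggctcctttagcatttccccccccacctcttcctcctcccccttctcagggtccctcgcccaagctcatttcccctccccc
ZAR1L: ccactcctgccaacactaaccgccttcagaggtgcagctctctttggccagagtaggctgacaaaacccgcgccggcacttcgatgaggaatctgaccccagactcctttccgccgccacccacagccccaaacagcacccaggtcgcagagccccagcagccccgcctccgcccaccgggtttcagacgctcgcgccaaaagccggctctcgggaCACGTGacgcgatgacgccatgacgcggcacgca

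IGF2BP3 (ENSSSCG00000036695, chr9:92104787-92272014, minus strand) was among the most abundant nuclear mRNAs up to the 4-cell stage and was far lower in both 8-cell embryos. The 3 IVF zygotes had 1168, 652 and 607 FPKM. The 6 IVF 2-cell blastomeres had 523 to 883 (median 702), and the 9 IVF 4-cell blastomeres 125 to 1067 (median 467). The 3 IVF 8-cell blastomeres had 2.01, 2.25 and 35.0. Each 8-cell blastomere was thus below every earlier IVF cell.

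In PA, the 3 1-cell embryos had 1125, 841 and 707 FPKM of IGF2BP3. The 2-cell blastomeres had 753 to 1091 (median 963), the 4-cell blastomeres 463 to 999 (median 844), and the 7 of them that are not near repeats 463 to 941. The 8-cell blastomeres had 66.4, 86.2 and 0.149, again below all earlier cells, and 0.149 corresponded to 20 reads. Ranked by group mean among 15327 nuclear genes, IGF2BP3 was 5th, 11th, 12th and 1518th at the successive IVF stages and 7th, 7th, 7th and 506th in PA.

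Means of IGF2BP3 over embryos were 809 ± 312, 711 ± 156 and 583 ± 152 FPKM (SD, n = 3) at the IVF 1-, 2- and 4-cell stages and 891 ± 214, 930 ± 85.6 and 802 ± 37.4 (SD, n = 3) in PA, and groups of adjacent stages overlapped except PA 4-cell embryos, which lay below PA 2-cell embryos. The 8-cell means were 13.1 (IVF) and 50.9 (PA), 44.5-fold and 15.8-fold below the 4-cell means. From the 4- to the 8-cell stage, IGF2BP3 fell by 5.34 on the log2 scale in IVF (SE 0.526, limma adjusted p = 2.7e-06) and fell by 3.95 in PA (SE 0.526, adjusted p = 8.6e-05). From the 1- to the 8-cell stage it fell by 5.78 in IVF (adjusted p = 8.09e-07) and fell by 4.08 in PA (adjusted p = 5.22e-05), but with cells scaled by their median ratio over nuclear genes the values were -2.18 (adjusted p = 0.0563) and 0.40 (adjusted p = 0.855). That scaling moved the median of all genes tested from -0.77 to -0.06 in IVF and from -0.58 to -0.10 in PA, and under it IGF2BP3 rose in PA between the 1- and 4-cell stages (3.34, adjusted p = 0.000739), where the main value was -0.13 (adjusted p = 0.934). Both 8-cell comparisons use the same single embryo per method, whose spread is borrowed from the other groups, so the spread between 8-cell embryos was not measured. In a fit limited to the groups compared, the fall after the 4-cell stage was not called (adjusted p = 0.115 in IVF and 0.0616 in PA). The table also holds MALSU1, overlapping 4512 bases of IGF2BP3 on the other strand, and an unnamed gene overlapping 30044 bases (r over 42 cells -0.09 and 0.06). Use of strand in the counting was not stated, so reads in these overlaps cannot be assigned.

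IGF2BP1 (chr12:25197257-25242918, plus strand) was nearly undetected up to the 4-cell stage and appeared at the 8-cell stage. In the 36 earlier cells it did not exceed 0.304 FPKM (11 reads, in IVF 4-cell-3-1), and all 3 PA 1-cell embryos were listed at 0. In the IVF 8-cell blastomeres it was at 0, 88.7 and 0.503 FPKM, so that 1 blastomere carried nearly all of the signal. In the PA 8-cell blastomeres it was at 0.0323, 28.9 and 68.1, so that 2 of 3 carried it.

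The log2 difference of IGF2BP1 between the 4- and 8-cell stages was 4.88 in IVF and 5.05 in PA on the scale of log2(FPKM + 1), and against the 1-cell stage it was 4.93 and 5.06. IGF2BP1 passed the filter on low values through 3 cells, all of them 8-cell blastomeres, so it had to differ at this stage and no test is given. The SD of log2(FPKM + 1) between sister blastomeres of the 8-cell embryos was 3.40 for IGF2BP1. The IVF difference rested on blastomere 1-2, without which it was 0.26 from the 4-cell stage.

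**Figure D1:**
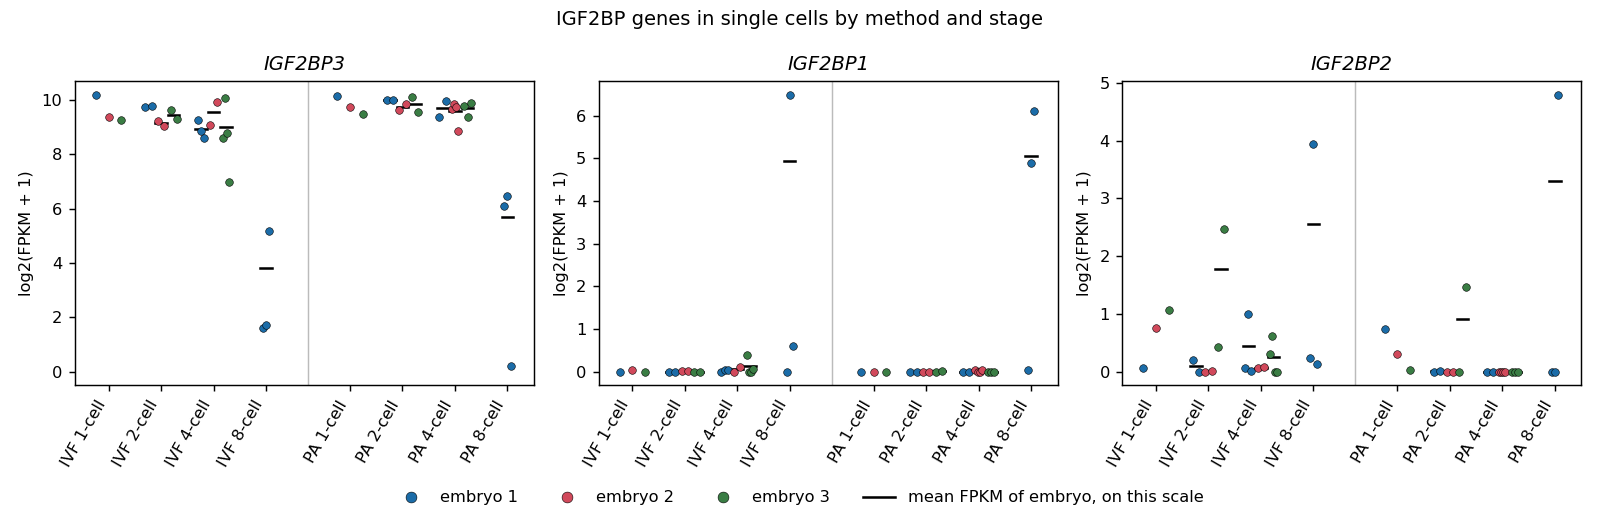
IGF2BP3, IGF2BP1 and IGF2BP2 in single cells, as log2(FPKM + 1) on the vertical axis, by method and stage. Points are cells coloured by embryo, and black bars are the embryo's mean FPKM on this scale. IGF2BP3 lies at 125 FPKM or above in all 36 cells up to the 4-cell stage and at 86.2 or below in the 6 cells of 8-cell embryos, where IGF2BP1 first exceeds 0.304.

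IGF2BP2 (ENSSSCG00000011795, chr13:123485623-123650043, minus strand) was low and patchy before the 8-cell stage. The IVF zygotes had 0.0408, 0.697 and 1.11 FPKM, IVF 2-cell blastomeres at most 4.54 and IVF 4-cell blastomeres at most 1.01. The PA 1-cell embryos had 0.659, 0.241 and 0.0196, PA 2-cell blastomeres at most 1.75, and all 9 PA 4-cell blastomeres were listed at 0. At the 8-cell stage the values were 0.181, 14.4 and 0.0938 in IVF and 0, 0 and 26.7 in PA. One blastomere of each 8-cell embryo thus carried IGF2BP2, and each of these was also the highest of its embryo in IGF2BP1.

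In PA, IGF2BP2 rose by 3.31 from the 4- to the 8-cell stage (SE 0.720, limma adjusted p = 0.00535) and by 2.95 from the 1- to the 8-cell stage (adjusted p = 0.0102). Blastomere 1-4 decides both calls. Without it the log2 fold changes were 0 (adjusted p = 1) and -0.36 (adjusted p = 0.778), and with the mean of log2 values over blastomeres they were 1.60 (adjusted p = 0.133) and 1.24 (adjusted p = 0.153). In IVF the log2 fold change from the 4- to the 8-cell stage was 2.31 (adjusted p = 0.0607), and 5 of 33 alternatives called it.

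The makeup of the IGF2BP family differed between sister blastomeres of the 8-cell embryos. IGF2BP3 made up at least 99.3% of the summed FPKM of IGF2BP1, IGF2BP2 and IGF2BP3 in all 36 cells up to the 4-cell stage. In the IVF 8-cell blastomeres 1-1, 1-2 and 1-3 it made up 91.8%, 2.14% and 98.3%, of sums of 2.19, 105 and 35.6 FPKM. In the PA 8-cell blastomeres 1-1, 1-2 and 1-4 it made up 99.95%, 74.9% and 0.157%, of sums of 66.5, 115 and 94.9. In each embryo, 1 blastomere was led by IGF2BP1 and the others by IGF2BP3. These are 3 cells of 1 embryo per method, with no replicate embryo.

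**Figure D2:**
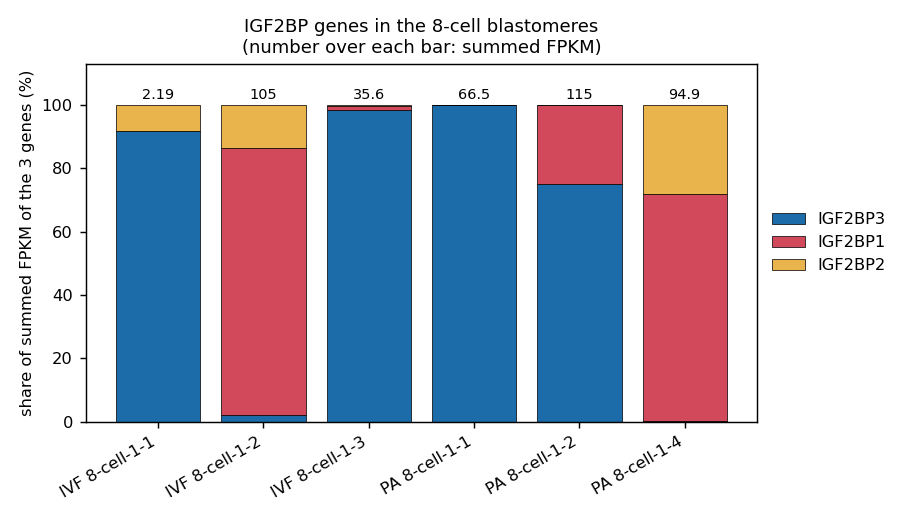
Share of IGF2BP3, IGF2BP1 and IGF2BP2 in the summed FPKM of the 3 genes (vertical axis, percent) in the 6 blastomeres of 8-cell embryos, with the sum above each bar. IGF2BP3 makes up 2.14% in IVF blastomere 1-2 and 0.157% in PA blastomere 1-4, and 74.9% or more in the other 4.

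Over 20 embryos, Pearson's r of log2(FPKM + 1) was -0.96 between IGF2BP3 and IGF2BP1 and 0.85 between IGF2BP1 and IGF2BP2. Without both 8-cell embryos (18 embryos) r was -0.54 and -0.09, with IGF2BP1 near 0 throughout. The embryos share stage and libraries, so these are descriptions. The tested genes most like IGF2BP3 in this measure were ENSSSCG00000039614 (r 0.96) and BMP15 (r 0.95), an oocyte growth factor. Those most like IGF2BP1 were OGN (r 0.999) and FABP5 (r 0.996). As IGF2BP1 was near 0 in the 18 earlier embryos, its r is set by both 8-cell embryos. Any gene absent earlier and present in both would come near 1.

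ZAR1L (ENSSSCG00000034291, chr11:8765256-8805881, minus strand) was the most abundant of the ZAR genes and fell to a trace by the 8-cell stage in both methods. The IVF zygotes had 39.0, 19.2 and 26.9 FPKM, the 2-cell blastomeres 5.52 to 35.9 (median 22.5), the 4-cell blastomeres 0.0370 to 21.8 (median 1.26) and the 8-cell blastomeres 0.0286, 0.0325 and 0.0121, which are 1, 3 and 1 reads. The PA 1-cell embryos had 34.9, 46.2 and 26.7, the 2-cell blastomeres 0.691 to 36.7 (median 30.2) and the 8-cell blastomeres 0.0572, 0.0602 and 0. The 8-cell cells lay below every 1- and 2-cell cell. Reads of amplified cDNA without molecular identifiers are not independent molecules, so these read numbers cover counting error only.

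From the 1- to the 8-cell stage, ZAR1L fell by 4.79 in IVF (SE 1.28, limma adjusted p = 0.0173) and fell by 5.12 in PA (SE 1.28, adjusted p = 0.0120). Each call held in 33 of 34 alternatives and was lost with median-ratio scaling (adjusted p = 0.106 and 0.0593), under which both values were still negative (-2.97 and -3.37). Part of the difference was already seen at the 4-cell stage, where blastomeres split. From the 1- to the 4-cell stage the log2 fold change was -2.74 in IVF (limma adjusted p = 0.1) and -2.65 in PA (adjusted p = 0.153), neither called. Of 18 4-cell blastomeres, 7 had at least 1 FPKM and 11 less. In IVF embryo 3, blastomeres 3-1 and 3-3 had 21.8 and 14.3, whereas 3-2 and 3-4 had 0.373 and 0.0451. In PA, the near repeats 1-4 and 2-1 had 32.6 and 36.0, whereas the other 7 had 0.0260 to 0.228.

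Embryo means of ZAR1L were 28.4 ± 9.96, 20.6 ± 4.31 and 5.03 ± 4.57 FPKM (SD, n = 3) at the IVF 1-, 2- and 4-cell stages and 35.9 ± 9.79, 24.5 ± 6.18 and 8.52 ± 8.15 (SD, n = 3) in PA. Between the 2- and 4-cell stages the log2 fold change was -2.33 in IVF (limma adjusted p = 0.187) and -2.11 in PA (adjusted p = 0.392), and neither was called, although 4-cell embryos lay below 2-cell embryos in both. Without the 2 near repeats, PA embryos were called lower in ZAR1L, which fell by 4.50 between the 2- and 4-cell stages (adjusted p = 0.00118) and fell by 5.03 from the 1- to the 4-cell stage (adjusted p = 0.000468). With the mean of log2 values over blastomeres, the IVF value was -2.65 (adjusted p = 0.0379).

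CPEB1 (ENSSSCG00000001808, chr7:52303665-52383732, plus strand) followed a like course at lower levels. The IVF zygotes had 10.1, 15.8 and 14.2 FPKM, the 2-cell blastomeres 1.67 to 16.3 (median 12.7), the 4-cell blastomeres 0 to 8.22 (median 0.0429) and the 8-cell blastomeres 0, 0.00935 and 0.0314. IVF 4-cell blastomeres 3-3 with 8.22 and 1-2 with 2.69 were above 1 FPKM. The PA 1-cell embryos had 12.3, 12.2 and 8.12, the 2-cell blastomeres 1.49 to 19.8 (median 11.9) and the 8-cell blastomeres 0.0212, 0 and 0. In the PA 4-cell embryos the near repeats had 18.9 and 16.2 and the other 7 blastomeres 0 to 0.471, so the PA 4-cell level of CPEB1 rests on the near repeats.

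From the 1- to the 8-cell stage, CPEB1 fell by 3.81 in IVF (SE 1.21, limma adjusted p = 0.0415), a call that held in 26 of 34 alternatives. It was lost with any 1-cell embryo of either method left out, with a pseudocount of 5 and with median-ratio scaling. In PA the value was -3.54 (SE 1.21, adjusted p = 0.0583), not called, and 11 of 34 alternatives called it (adjusted p from 0.0228 to 0.131 over all). Without the near repeats, CPEB1 in PA fell by 3.39 between the 2- and 4-cell stages (adjusted p = 0.00922), against -1.52 (adjusted p = 0.565) with them. From the IVF 1- to 4-cell stage the log2 fold change was -2.93 (adjusted p = 0.0716).

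DAZL (chr13:3764784-3776150, minus strand) varied widely between cells of one stage. The IVF zygotes had 6.73, 27.8 and 17.4 FPKM and the PA 1-cell embryos 23.4, 0 and 15.7. The IVF 2-cell blastomeres had 0 to 24.1 (median 5.12) and the IVF 4-cell blastomeres 0 to 47.1 (median 0.0882), the highest being 3-3, which was also the highest in CPEB1 and in ZAR1. The PA 2-cell blastomeres had 0 to 18.1 (median 0). All 6 cells of 8-cell embryos were listed at 0, and 3 reads of DAZL would be at most 0.335 FPKM in any cell. No stage comparison of DAZL was called (IVF 1- to 8-cell log2 fold change -4.001, SE 1.75, limma adjusted p = 0.135, and PA -2.89, adjusted p = 0.316), but with the mean of log2 values over blastomeres the IVF value was called (-4.001, adjusted p = 0.0444).

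**Figure D3:**
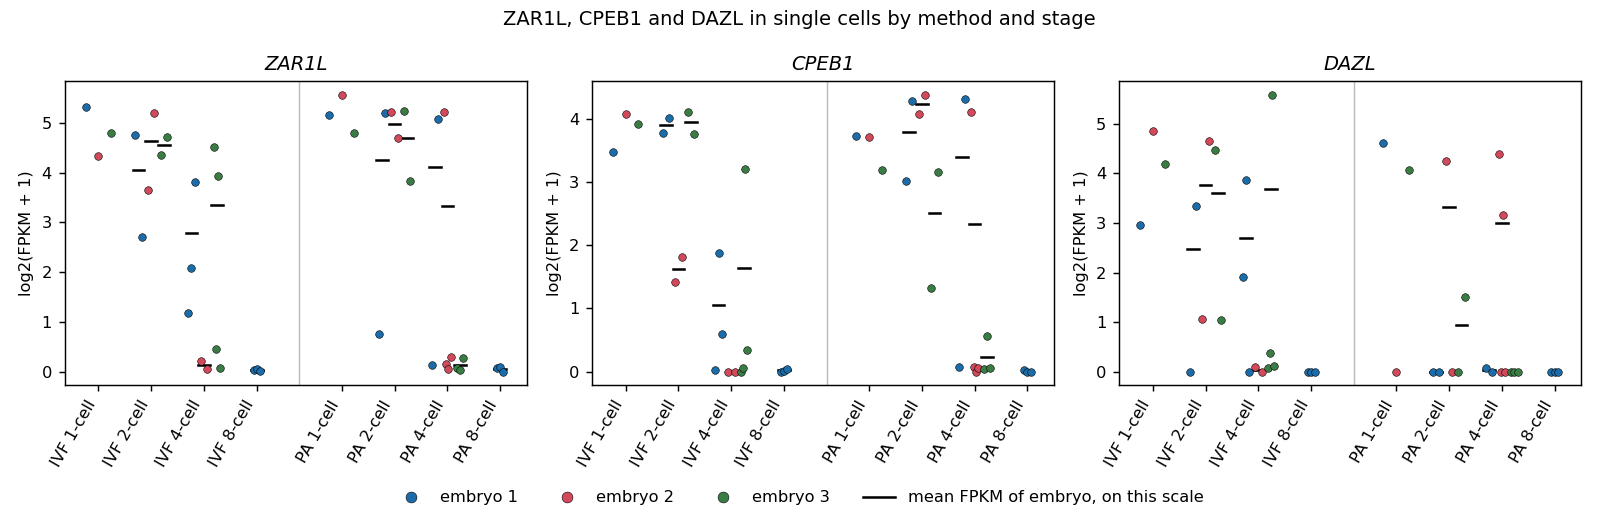
ZAR1L, CPEB1 and DAZL in single cells, as log2(FPKM + 1) on the vertical axis, by method and stage. Points are cells coloured by embryo, and black bars are the embryo's mean FPKM on this scale. The 4-cell blastomeres of one embryo lie far apart, as ZAR1L at 21.8 and 0.0451 FPKM in IVF embryo 3, and the high PA 4-cell points of ZAR1L (32.6 and 36.0) are the near repeats.

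Sister blastomeres differed by gene. The SD of log2(FPKM + 1) within embryos was 0.20 for IGF2BP3 at the 2-cell stage, 0.73 at the 4-cell stage and 2.86 at the 8-cell stage. For ZAR1L it was 1.54, 2.06 and 0.04, and for CPEB1 0.67, 1.59 and 0.02, since both were near 0 in all 8-cell blastomeres. For DAZL it was 2.16 and 1.92 at the 2- and 4-cell stages. Across the 18 4-cell blastomeres, r of log2(FPKM + 1) was 0.78 between ZAR1L and CPEB1, 0.57 between CPEB1 and DAZL, -0.08 between ZAR1L and IGF2BP3 and 0.08 between CPEB1 and IGF2BP3. Blastomeres share embryos and depth, and the near repeats are among them. In PA, the 4-cell spread of ZAR1L and CPEB1 rests largely on the near repeats. They had 32.6 and 36.0 FPKM of ZAR1L and 18.9 and 16.2 of CPEB1. The other 7 PA blastomeres had at most 0.228 and 0.471. The SD and r without the near repeats were not computed. Blastomeres with little ZAR1L or CPEB1 still carried IGF2BP3, as PA 4-cell-3-4 with 0.205 FPKM of ZAR1L, 0.0409 of CPEB1 and 941 of IGF2BP3. Over the 20 embryos, r between ZAR1L and CPEB1 was 0.90, and 0.84 without both 8-cell embryos. The tested genes most like ZAR1L were EDRF1 (r 0.95) and TYMS (r 0.95), and those most like CPEB1 were MRPS14 (r 0.93) and ZNF449 (r 0.91).

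YBX2, ZAR1 and LSM14B were low in every group. YBX2 (ENSSSCG00000017938, chr12:52635098-52641651, minus strand), a Y-box protein that coats stored mRNA in germ cells, had 1.78, 0.629 and 0.778 FPKM in the IVF zygotes and 4.103, 0 and 0.395 in the PA 1-cell embryos. It reached 5.54 among IVF 2-cell and 10.3 among PA 2-cell blastomeres, and did not exceed 0.0466 (1 read) in any 8-cell blastomere. No comparison of YBX2 was called (IVF 1- to 8-cell log2 fold change -0.97, limma adjusted p = 0.575, and PA -0.93, adjusted p = 0.633).

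ZAR1 (ENSSSCG00000008824, chr8:38386643-38391611, plus strand), the paralogue of ZAR1L, was above 0 in 8 of 42 cells. The IVF zygotes had 0, 0.532 and 0.0544 FPKM and the PA 1-cell embryos 1.34, 0 and 0. The highest value was 11.2 in IVF 4-cell-3-3, whose 3 sisters were listed at 0. All 6 cells of 8-cell embryos were listed at 0 (3 reads of ZAR1 would be at most 0.225 FPKM). ZAR1L was above ZAR1 in every 1-cell embryo, at 19.2 FPKM or more against at most 1.34.

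LSM14B (ENSSSCG00000026052, chr17:61552551-61564814, plus strand), a protein of stored mRNA particles, was highest in 2 IVF 4-cell blastomeres, 2-3 with 14.7 and 3-4 with 12.5 FPKM, each with sisters at or below 0.0127. Elsewhere it did not exceed 1.55. From the IVF 1- to the 4-cell stage its log2 fold change was 1.68 (SE 0.524, limma adjusted p = 0.0841), not called. The difference from PA at the 4-cell stage was 1.48 (adjusted p = 0.203), not called. Without IVF 4-cell embryo 1, which had no high blastomere, these values were 2.53 and 2.33 and passed the threshold. LSM14B passed the filter on low values through 3 cells, 2 of them these high blastomeres. Leaving out the embryo without one also narrows the spread, so these 2 calls are no support for a difference. PSMA7 overlaps 2396 bases of LSM14B on the other strand (r 0.45 over 42 cells), so some of its reads may belong to either gene.

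**Figure D4:**
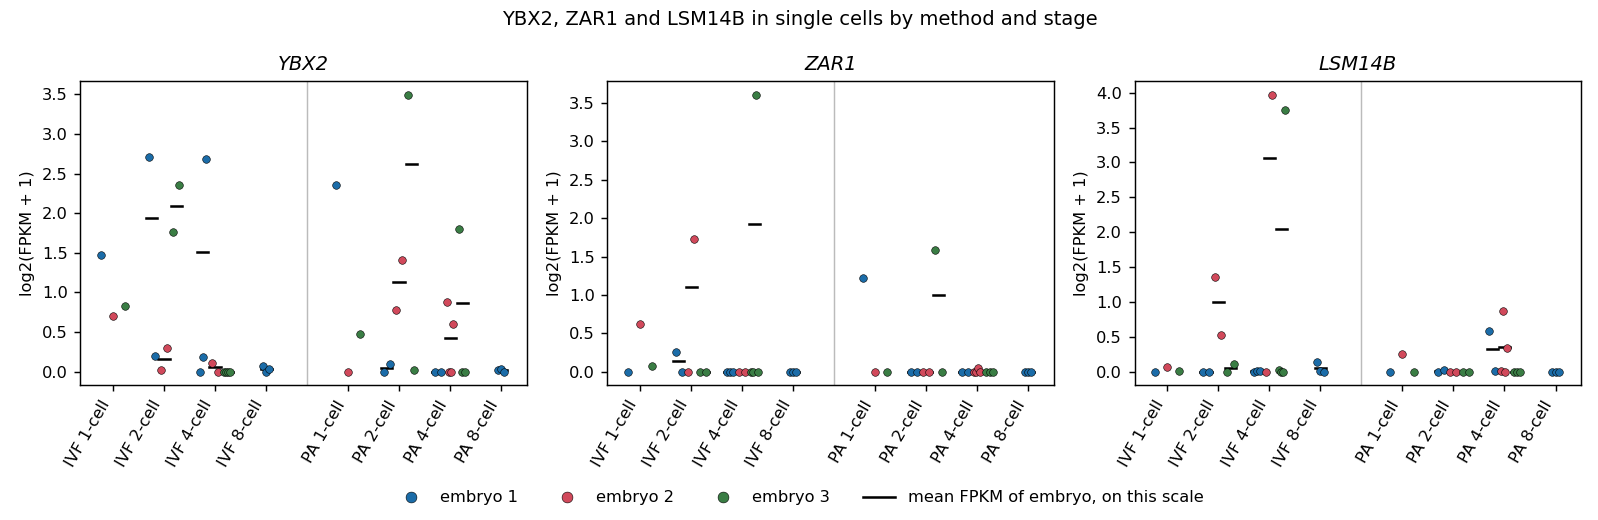
YBX2, ZAR1 and LSM14B in single cells, as log2(FPKM + 1) on the vertical axis, by method and stage. Points are cells coloured by embryo, and black bars are the embryo's mean FPKM on this scale. The highest cells are PA 2-cell-3-1 for YBX2 (10.3 FPKM), IVF 4-cell-3-3 for ZAR1 (11.2) and IVF 4-cell-2-3 for LSM14B (14.7), and most cells are near 0.

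By comparison, calls among the 7 members found by name came only at the 8-cell stage. Genes were called at an adjusted p below 0.05 (limma with a mean-variance trend, Benjamini-Hochberg over all 8116 genes) and a fold change of at least 2. From the IVF 4- to 8-cell stage, 1 of 7 fell (IGF2BP3) and 0 rose, against 6.97% of all genes called, 3.25% lower and 3.72% higher. From the IVF 1- to 8-cell stage, 3 of 7 fell (IGF2BP3, ZAR1L and CPEB1), against 14.3% called, 8.23% lower and 6.03% higher. From the PA 4- to 8-cell stage, 1 rose (IGF2BP2) and 1 fell (IGF2BP3), against 9.99% called, 6.81% higher and 3.18% lower. From the PA 1- to 8-cell stage 1 rose (IGF2BP2) and 2 fell (IGF2BP3 and ZAR1L), against 13.8% called, 7.58% higher and 6.21% lower. With median-ratio scaling the genes called from the 1- to the 8-cell stage went from 489 higher and 668 lower to 1518 and 116 in IVF, and from 615 and 504 to 1727 and 112 in PA. The median log2 fold change of the 7 from the 1- to the 8-cell stage was -0.97 in IVF and -0.93 in PA, beside -0.77 and -0.58 over all genes tested.

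Before the 8-cell stage none of the 7 was called by limma. From the 1- to the 2-cell stage no member had an unadjusted p under 0.05 in either method, beside 216 (IVF) and 394 (PA) of all 8116 genes, and 0% and 0.0986% of all genes were called. From the 2- to the 4-cell stage, 3 of 7 in IVF and 1 of 7 in PA had an unadjusted p under 0.05, beside 1432 and 873 of all 8116 genes, with 1.11% and 0.394% of all genes called. From the 1- to the 4-cell stage it was 3 and 1 of 7, beside 1670 and 1276 of 8116, with 2.21% and 0.949% called. Without the near repeats, 2 of 7 (ZAR1L and CPEB1) fell between the PA 2- and 4-cell stages, when 7.41% of all genes were called and 6.26% called lower. From the PA 1- to 4-cell stage the same 2 members fell, when 10.9% were called and 9.35% called lower. From the PA 4- to 8-cell stage 1 rose and 1 fell with or without them (9.72% called without). From the PA 1- to 8-cell stage, CPEB1 was called lower as well without them (-3.54, adjusted p = 0.0380).

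**Figure D5:**
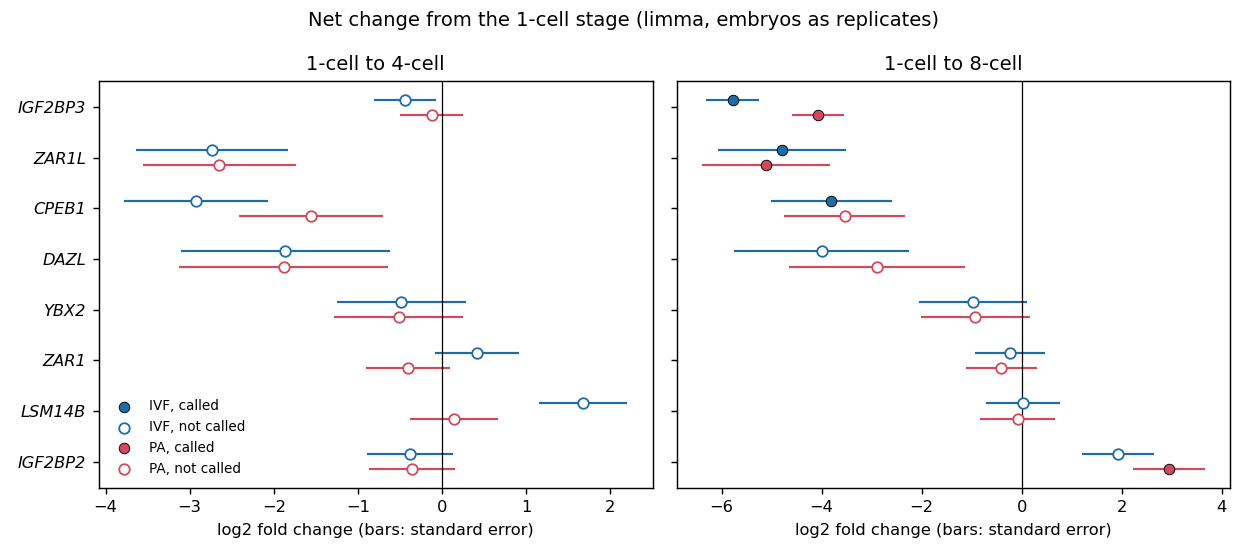
Log2 fold changes of 8 genes, IGF2BP1 left out, from the 1-cell stage to the 4-cell (left) and 8-cell stage (right), with standard errors, on the scale of log2(FPKM + 1). Filled points are called and open points are not. IGF2BP3, ZAR1L and, in IVF, CPEB1 are called lower at the 8-cell stage, IGF2BP2 is called higher in PA, and none of the 8 is called at the 4-cell stage. With median-ratio scaling the PA value of IGF2BP3 is 3.34 at the 4-cell and 0.40 at the 8-cell stage.

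IVF and PA embryos of the same stage were compared to ask whether the sperm or the activation changes these mRNAs. None of the 7 was called by limma at the 1-, 2- or 4-cell stage, and 0, 0 and 1 (LSM14B) had an unadjusted p under 0.05, beside 332, 441 and 1134 of all 8116 genes. Of all genes, 0.0493%, 0% and 0.554% were called, and at the 4-cell stage 4.07% without the near repeats, when again none of the 7 was. IGF2BP3 was lower in all 3 IVF 4-cell embryos (485 to 757 FPKM) than in all 3 PA embryos (759 to 828), with a log2 difference of -0.49 (SE 0.372, adjusted p = 0.604). Without the near repeats, PA embryo 1 had 656 FPKM and the groups overlapped. Under median-ratio scaling that difference was -2.69 (adjusted p = 0.00909). At the 4-cell stage the difference was -0.44 for ZAR1L (SE 0.905, limma adjusted p = 0.902). For CPEB1 it was -1.09 (SE 0.856, adjusted p = 0.620), so that a sizeable difference either way was not detectable. The PA values of both genes rest on the near repeats, without which both differences turned positive. Over the alternatives they ranged from -1.64 to 1.94 for ZAR1L and from -1.97 to 0.81 for CPEB1, and none was called. The fall of IGF2BP3 from the 4- to the 8-cell stage differed between methods by -1.39 (SE 0.743, interaction adjusted p = 0.435). Each 8-cell arm of this difference is 1 embryo with borrowed spread, and leaving out IVF 8-cell blastomere 1-3 moved it to -3.56. No interaction of method with a step was called for any of the 7 (unadjusted p under 0.05 for 0 of 7 in each, beside 227, 434 and 1175 of 8116 genes), against 0%, 0% and 2.86% of all genes called. At the 8-cell stage, with 1 embryo per method, IGF2BP3 had 13.1 FPKM in IVF and 50.9 in PA, IGF2BP1 29.7 and 32.3, and IGF2BP2 4.89 and 8.90, with no test.

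Other regulators of stored mRNA were taken as a list of 44 symbols, matched by 42 genes of the table (DAZAP1 by 2 gene IDs), of which 37 were tested. Between the 1- and 8-cell stages, 3 of 37 rose and 3 fell in IVF, beside 14.3% of all genes called, and 2 rose and 3 fell in PA, beside 13.8%. From the 4- to the 8-cell stage, 1 rose and 1 fell in IVF (6.97% of all genes called) and 1 rose in PA (9.99%). No call was made before the 8-cell stage, where 1 to 5 of 37 had an unadjusted p under 0.05 in each step or net comparison within a method, beside 216 to 1670 of 8116 genes. The list's median log2 fold change from the 1- to the 8-cell stage was -0.57 in IVF and -0.53 in PA, beside -0.77 and -0.58 over all genes. Each 8-cell arm of the calls below is 1 embryo per method with borrowed spread. These calls were not recomputed under the alternatives. Median-ratio scaling left far fewer of all genes called lower, as given above, so whether these falls hold under it was not tested.

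ZFP36L2 and YBX1 were the regulators that rose in both methods. ZFP36L2, which binds AU-rich elements and promotes mRNA decay, went from 0.419 ± 0.383 FPKM (SD, n = 3) in IVF zygotes to 15.1 in the 8-cell embryo and from 0.146 ± 0.116 (SD, n = 3) to 26.5 in PA. From the 4- to the 8-cell stage it rose by 3.91 in IVF and 4.74 in PA. Before the 8-cell stage ZFP36L2 did not exceed 0.269 FPKM in any PA embryo, and it reached 3.52 in an IVF 2-cell embryo. In PA only 8-cell blastomeres could thus reach the 1 FPKM of the filter. ZFP36L2 is counted in the calls above, but no p-value is given. YBX1, the somatic relative of YBX2, went from 8.02 ± 2.01 to 166 in IVF and from 4.23 ± 2.03 to 60.9 in PA, and rose from the 1- to the 8-cell stage by 4.23 (adjusted p = 0.00973) and 3.63 (adjusted p = 0.0243).

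Among the regulators that fell, ELAVL2, an AU-rich element binding protein, went from 21.4 ± 2.15 (SD, n = 3) to 0.0216 FPKM in IVF and from 17.6 ± 3.19 to 0.0303 in PA (1- to 8-cell log2 fold changes -4.45 and -4.16, limma adjusted p = 0.0152 and 0.0227). STAU1, a double-stranded RNA binding protein, went from 15.5 to 1.33 in IVF and from 26.0 to 0.994 in PA (-2.72 and -3.75, adjusted p = 0.0429 and 0.00778). DCP2, the decapping enzyme, fell in IVF (54.0 to 3.16, -3.69, adjusted p = 0.00751), whereas in PA it had 25.9 at the 1-cell and 32.7 at the 8-cell stage. EIF4ENIF1, a translational repressor that binds eIF4E, fell in PA (47.1 to 0.103, -5.33, adjusted p = 0.0420). EIF4ENIF1 was also lower at the end in IVF, with 52.6 FPKM at the 1-cell and 3.27 at the 8-cell stage. For DCP2 and EIF4ENIF1, which were called in 1 method, the difference between methods over the 1- to 8-cell span was not tested.

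Of 17 mRNAs that the members bind or control in other species, 13 were in the table and 10 were tested. Between the 1- and 8-cell stages, 3 of 10 fell and 0 rose in IVF, beside 8.23% of all genes called lower and 6.03% higher, and 2 fell and 0 rose in PA, beside 6.21% lower and 7.58% higher. From the 4- to the 8-cell stage 1 (CCNB1) fell in PA, beside 3.18% of all genes called lower, and no other step or net comparison within a method had a call (unadjusted p under 0.05 for 0 to 5 of 10, beside 216 to 1670 of 8116 genes). CCNB1, cyclin B1, fell in both (33.2 to 1.42 FPKM in IVF, log2 fold change -3.82, limma adjusted p = 0.00489, and 30.03 to 1.78 in PA, -3.45, adjusted p = 0.00997). MOS, the kinase that holds the egg in meiotic arrest, fell in both (26.6 to 0.0832, -4.61, adjusted p = 0.0343, and 31.0 to 0.0637, -4.89, adjusted p = 0.0269). CCNB2 fell in IVF (28.9 to 0.0232, -4.66, adjusted p = 0.0265), and in PA it had 11.5 at the 1-cell and 0.00466 at the 8-cell stage. The list's median log2 fold change was -1.11 in IVF and -2.27 in PA, beside -0.77 and -0.58 over all genes. As for the regulators, each 8-cell arm is 1 embryo with borrowed spread, and the calls were not recomputed under the alternatives.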

How the data were processed

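The authors lysed single cells and amplified cDNA made from RNA with or without poly(A) tails (Ansuper-seq). They mapped reads to Sscrofa11.1 with HISAT2 and deposited the FPKM of 15351 genes in 42 cells. The extraction protocol in the labels describes another procedure (Trizol). Strandedness, annotation release and molecular identifiers are not given in the sources used here. The count test of the study was not run.

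An embryo's value was its blastomeres' mean FPKM. The limma 3.58.1 package in R 4.3.3 was fitted to log2(FPKM + 1), which understates changes of low genes. The fit covered 8 groups and 8116 genes (1 FPKM or more in 3 or more cells), with a mean-variance trend. It was checked on simulated data with normal noise, of equal spread for a gene in all embryos. That check does not cover the spread between 8-cell embryos, which was not measured. Calls needed a Benjamini-Hochberg adjusted p below 0.05 and a log2 fold change of 1 or more in size. Reads were recovered from FPKM steps for 99.8% of 14692 genes (tolerance 0.002). They were used for depth, for the reads behind single values and for the FPKM of 3 reads, and not in the tests. Python 3.11.15, numpy 2.4.6, pandas 2.3.3 and matplotlib 3.10.9 were used for the rest. Sequences are from RefSeq for Sscrofa11.1, and promoters of 2 of 9 genes are shown.

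All members found and the called genes of the 2 lists of regulators and bound mRNAs are named, except 1 regulator that is not reported here. Members, lists and tests were chosen with earlier results of these data known. Alternatives were other pseudocounts, filters, scalings, means over blastomeres, sets of samples and leaving out single embryos. Leaving out 8-cell blastomeres one at a time, and nuclear rescaling together with leaving out the near repeats, were chosen after seeing the data.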

Additional observations from a re-analysis of the deposited data

Results flagged for a closer look

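A cell was noted where its gap to the nearest other cell of its group was large for the group's range (Dixon's criterion at 95%). Of 35 sets tested, each 1 gene in 1 group of 6 or 9 blastomeres, 14 met it. For values with a normal spread the criterion flags about 1 in 20 groups. Some groups here were at 0 in all cells but 1, where any value above 0 meets it. The 14 of 35 therefore cannot be set against that rate, and blastomeres of one embryo are not independent. The cause of these values was not tested.

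IGF2BP3 had 1 low cell, IVF 4-cell-3-4 with 125 FPKM, and ZAR1L had 1 low cell, PA 2-cell-1-1 with 0.691. High cells of IGF2BP2 were IVF 2-cell-3-2 with 4.54 and PA 2-cell-3-2 with 1.75. ZAR1 had IVF 2-cell-2-2 with 2.31, IVF 4-cell-3-3 with 11.2 and PA 2-cell-3-1 with 2.01. DAZL had PA 2-cell-2-1 with 18.1, and YBX2 had IVF 4-cell-1-4 with 5.40 and PA 4-cell-3-1 with 2.47. IGF2BP1 had IVF 4-cell-3-1 with 0.304. The remaining 3 are cells with 1 or 2 reads in groups otherwise at or near 0: IGF2BP1 in PA 2-cell-3-2 (0.0171), ZAR1 in PA 4-cell-2-3 (0.0346) and LSM14B in PA 2-cell-1-2 (0.0148).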

How the results depend on the processing

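Of 4578 recomputed values of the 9 members found, 4498 kept their side of the threshold and any called direction. Another 25 lost and 50 gained a call, and 5 changed sign where either fit made a call. Most of the 4498 were not called in the main fit and stayed uncalled. Their share therefore does not measure how stable the calls were. The values include those of IGF2BP1, for which no test is given. With median-ratio scaling, IGF2BP3 was 2.93 from the PA 2- to 4-cell, 3.34 from the 1- to 4-cell and 0.40 from the 1- to 8-cell stage. The scaling factor was 0.0389 to 2.68 among PA 4-cell and 0.104 to 1.89 among PA 8-cell blastomeres. IGF2BP2 from the PA 1- to 8-cell stage was -0.36 with the median over blastomeres and without blastomere PA 8-cell 1-4 (range with a sample left out -0.36 to 3.49). The cause was not tested.

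The number of the 7 members called changed as follows. IVF 2- to 4-cell (0) was 2 with the mean of log2 and 0 to 1 with an embryo left out. IVF 4- to 8-cell (1) was 2 without the filter, 2 with median-ratio scaling, 0 with only the groups compared, and 1 to 2 with an embryo or 8-cell blastomere left out. IVF 1- to 4-cell (0) was 2 with the mean of log2, 2 with the median and 0 to 2 with an embryo left out. IVF 1- to 8-cell (3) was 1 with median-ratio scaling, 2 with a pseudocount of 5 and 2 to 4 with a sample left out (2 without any 1-cell embryo of either method, 4 without IVF 2-cell embryo 3 or blastomere IVF 8-cell 1-1 or 1-3). PA 2- to 4-cell (0) was 1 with median-ratio scaling and 2 without the near repeats, nuclear rescaling added or not. PA 4- to 8-cell (2) was 1 with an FPKM of at least 5, with the mean of log2 or with the median, 0 with only the groups compared, and 1 to 3 with a sample left out (1 without blastomere PA 8-cell 1-4, 3 without PA 4-cell embryo 3). PA 1- to 4-cell (0) was 1 with median-ratio scaling, 2 with the mean of log2, 1 with the median and 2 without the near repeats, nuclear rescaling added or not. PA 1- to 8-cell (3) was 1 with median-ratio scaling, 2 with an FPKM of at least 5 or the median, 4 without the near repeats (nuclear rescaling added or not), with only the groups compared, without the trend or with the replicate block, and 2 to 4 with a sample left out (2 without blastomere PA 8-cell 1-4, 4 without IVF 2- or 4-cell embryo 2 or PA 4-cell embryo 1 or 3). IVF against PA at the 4-cell stage (0) was 1 with median-ratio scaling and 0 to 1 with an embryo left out. The interaction of method with the 4- to 8-cell step (0) was 1 with the median and 0 to 1 with a blastomere left out (IGF2BP3). A fit with only the groups compared has fewer embryos.

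Embryo numbers are not stated to link groups. Deviations of same-numbered embryos correlated at -0.04 to 0.36 over 45 pairs (median 0.01), with 4 above 0.1, so they were not taken as paired. With the embryo number as a replicate block, CPEB1 from the PA 1- to 8-cell stage was called (-3.94, limma adjusted p = 0.0479), and no other call changed.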
